A study of Mus musculus with 82 samples.

Results

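Genes that direct the formation of the heart, of blood vessels and of blood were followed in the chromatin of mouse stembryos. They were Etv2, Tal1, Lmo2, Kdr, Sox7, Sox18, Gata4, Gata6, Hand1 and Tbx5. They were chosen by name and by no rule on measured values, though earlier results of these data were known. They are 10 of the 21827 protein-coding genes of the annotation. Stembryos, also called gastruloids, are clumps of mouse embryonic stem cells that grow into an elongated structure resembling the posterior body axis after a pulse of the Wnt agonist Chiron. The series holds 80 peak lists from 82 samples, of which 61 are from wild-type (wt) cells and are the basis of this account. They cover 8 assays: the histone marks H3K27ac and H3K27me3, RNA polymerase II (PolII) and its elongating form phosphorylated on serine 2 (pSer2 PolII), the cohesin subunit RAD21, the cohesin loader NIPBL, the insulator protein CTCF and the transcription factor CDX2. Most stages between 48 h and 168 h after aggregation had 1 library per assay, and each library pooled stembryos of 1 or more plates.

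Stembryos of the 48 h stage were taken before the Chiron pulse, all others received it between 48 h and 72 h, and from 108 h on only elongating ones were collected. The mutant groups used here were Del(CBS1), Del(CBS1-2) and Del(CBS1-5), homozygous deletions of CTCF sites within the HoxD cluster on chromosome 2. Del(CBS1) and Del(CBS1-2) were made by CRISPR in stem cells, the second on top of the first, and the stem cell line of Del(CBS1-5) came from blastocysts of mutant mice. The wt cells were EmbryoMax 129/SVEV stem cells. The Del(CBS1) list of CTCF lacked a region over CBS1, and the Del(CBS1-2) list lacked CBS1 and CBS2. The list labelled Del(CBS1-5) lacked CBS2 to CBS5 but kept a region over CBS1. It thus held 5 of 9 HoxD sites, against 9 of 9 in each wt list. Any overlap with the wt region, however short, counted as a kept site. The paper reports that this line lacks CBS1 to CBS5, with no RAD21 accumulation at the deleted sites.

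Vessels and blood arise from mesoderm cells in which Etv2, an ETS factor, acts at the top of the programme, together with the bHLH factor Tal1 and its LIM-domain partner Lmo2. Kdr is the receptor for VEGF on the progenitors of endothelium and blood, and Sox7 and Sox18 are SoxF factors of endothelium. Gata4 and Gata6 are zinc-finger factors of the heart and the endoderm, Tbx5 is a T-box factor of the early heart and the forelimb, and Hand1 is a bHLH factor of the heart and of extraembryonic mesoderm. Before such genes are used, their CpG-rich promoters often carry H3K27me3, set by Polycomb complexes, and H3K27ac marks active promoters and enhancers. CDX2 is a homeobox factor of the posterior axis.

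For each gene, regions were collected in a window of the gene and 10 kb on each side, and at its starts, within 1 kb on each side of every annotated protein-coding start. The start signal used below is the number of fragments over the highest summit at a start divided by the lowest background of the list. Where a region overlapped a start window with its summits outside, its summit nearest to the start was used. The start signal is 0 where the list has no region in the window, and such a 0 means a value below the calling threshold there. The genes lie on GRCm38 (mm10) at chr2:103957986-103981878 for Lmo2, chr2:181669836-181671640 for Sox18, chr4:115056426-115071755 for Tal1, chr5:75932827-75978458 for Kdr and chr5:119832668-119885219 for Tbx5. The others lie at chr7:30633616-30635852 for Etv2, chr11:57828705-57832818 for Hand1, chr14:63198922-63271692 for Gata4, chr14:63943673-63950732 for Sox7 and chr18:11052064-11085635 for Gata6. Distances are counted from the first protein-coding start in the direction of transcription, with upstream positions negative.

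The lists differed in length. They held 24002 to 67663 regions for H3K27ac, 7212 to 11469 for H3K27me3, 31823 to 71196 for RAD21 and 147 to 4501 for CDX2, and the lowest background was 1.12 to 7.21 fragments per base over all 80 lists. Few defining markers of mature cell types had PolII or H3K27ac at their starts. None of 5 cardiomyocyte, 4 endothelial or 4 blood markers had PolII in any of 8 stages. At most 1 of each group had H3K27ac in any of 9 stages. The blood group, however, had 1 marker with H3K27ac at every stage (21.25 at 72 h and 4.44 at 144 h). All 6 markers of the posterior axis had H3K27ac from 84 h to 108 h. The 5 naive pluripotency markers all had it at 48 h and 72 h, and 1 to 3 of them later.

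H3K27me3 was common at the starts of the regulators, and PolII was found at few of them. H3K27me3 regions overlapped the starts of 5 to 9 of the 10 genes per list, against 14.7 to 21.7% of all genes, and PolII those of 1 to 4, against 47.4 to 55.9%. H3K27ac was present at 1 to 8 of them, against 48.9 to 62.9% of all genes, and at 72 h more of them had H3K27ac (7) than H3K27me3 (5). RAD21 overlapped 3 to 5 of the starts, against 12.1 to 49.4% of all genes, NIPBL 1 to 5, against 12.8 to 53.0%, and CTCF 3 to 4, against 26.3 to 27.1%. The elongating pSer2 PolII overlapped 0 to 1 of the starts, against 7.71 to 43.8% of all genes, and CDX2 none, against 0.0687 to 1.96%. Over all 610 pairs of a gene and a wt list, 199 (32.6%) had a region at the start.

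**Figure D1:**
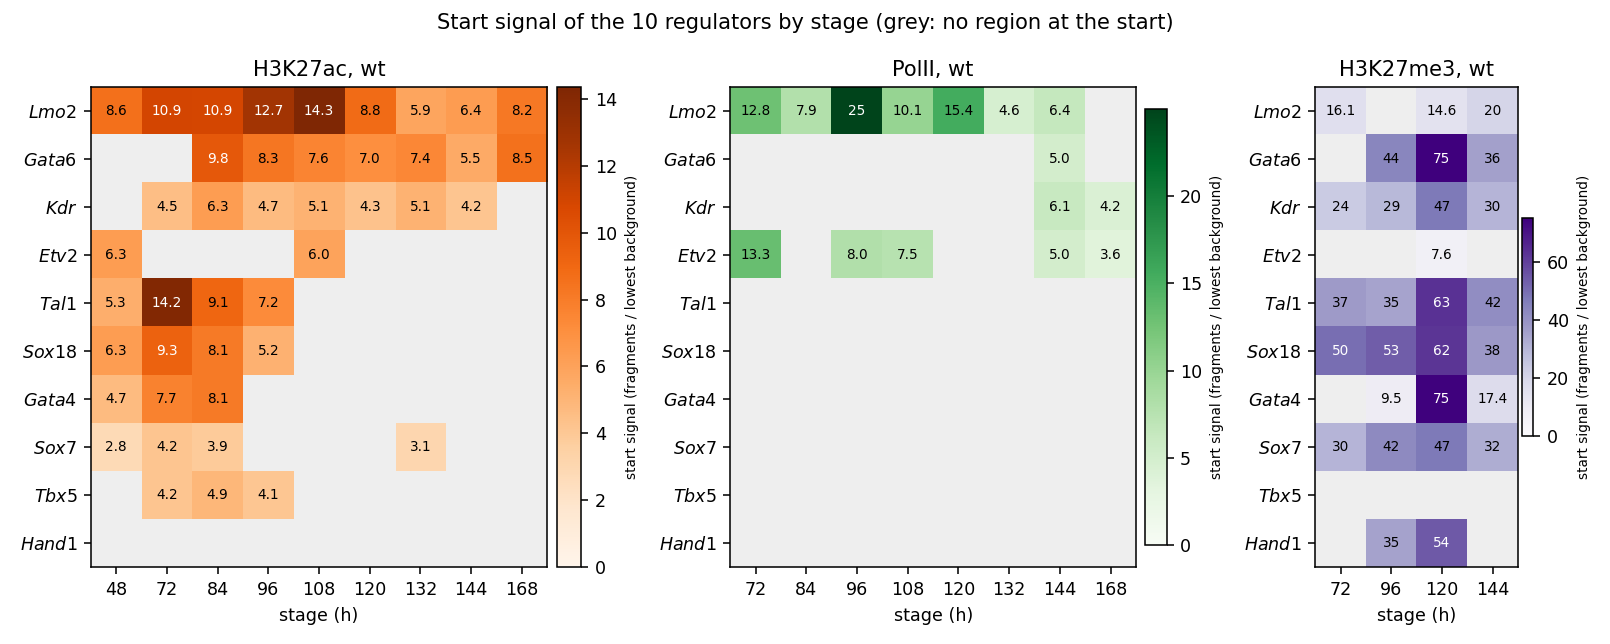
Start signal (fragments over the highest summit divided by the lowest background) of the 10 genes by stage in hours, for H3K27ac, PolII and H3K27me3 in the unnumbered wt lists, 1 library per stage. Grey cells had no region at the start. Lmo2 had H3K27ac at all 9 stages, Tal1, Sox18, Gata4 and Tbx5 had none after 96 h, and H3K27me3 was highest at 120 h for 8 of the 10 genes.

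In the full lists more of these starts had H3K27ac early than late, but with lists of equal length 84 h alone stood above the later stages. In the unnumbered time course, 6, 7, 8, 6, 4, 3, 4, 3 and 2 of the genes had a region at 48, 72, 84, 96, 108, 120, 132, 144 and 168 h. Their summed start signal was 33.96 at the first of these stages, reached 61.1 at 84 h and was 16.7 at the last. With each list reduced to the 24002 best regions of the shortest, the counts were 2, 3, 6, 3, 3, 2, 3, 3 and 2, so that 48 h then had as many genes as 168 h, and 72 h as many as 144 h. Markers of other cell states moved over the same stages. The summed H3K27ac of the 5 naive pluripotency markers was 44.65 at 48 h, 54.4 at 72 h and 6.38 to 29.1 later, and that of the 6 posterior markers was 11.9 at 48 h, 214.8 at 96 h and 28.3 at 144 h. Endoderm markers (3 genes) summed to 3.72 at 48 h and to 18.7 and 17.9 in the following lists (72 h and 84 h), with 0 to 13.8 later. The 4 somite markers had 4.19 to 18.03 up to 96 h, a maximum of 84.4 at 108 h and 29.4 to 82.9 later, and the 3 neural markers had 13.3 to 40.2 up to 144 h and 101.35 at 168 h. The part of these cell states in the values of the regulators was not tested. In pooled stembryos, fewer cells with a mark and less of the mark per cell cannot be told apart.

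Tal1 and Sox18 had H3K27ac at the first stages and not later. Tal1, the bHLH factor of blood and endothelial progenitors, had start signals of 5.35, 14.2, 9.13 and 7.24 at 48, 72, 84 and 96 h, and 0 from 108 h to 168 h. Sox18 had 6.28, 9.34, 8.07 and 5.17 at the same 4 stages and 0 thereafter. At 96 h the numbered libraries had 4.28 and 0 for Tal1, and 0 and 3.27 for Sox18. The 96 h regions of both genes were thus not found in every wt library. With lists of equal length the unnumbered 96 h list kept the region of Tal1 and not that of Sox18.

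The ranks of these genes fell with time, but not beyond what was called over all genes. Spearman's rho with hours over the 9 stages was -0.86 for Sox18 (exact permutation p = 0.0066, adjusted p = 0.17), with Pearson's r = -0.81 (exact permutation p = 0.0099) and r = -0.90 without the 48 h and 168 h stages. For Tal1 rho was -0.80 (exact permutation p = 0.0152, adjusted p = 0.241), r = -0.72 (exact permutation p = 0.0291) and r = -0.90 without the end stages. Adjustment was by Benjamini-Hochberg over the 14944 genes tested, of which 0 (0%) passed an adjusted p of 0.05 and 2146 an unadjusted p of 0.05, and 16 passed without the 168 h library. All tests were two-sided.

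The other genes with early regions were Gata4, Tbx5 and the endothelial gene Sox7. Gata4 had H3K27ac start signals of 4.65, 7.73 and 8.07 at 48, 72 and 84 h and 0 in the 6 later stages and in the 4 numbered lists (rho = -0.76, exact permutation p = 0.0278, adjusted p = 0.262). Its Pearson r was -0.71 (exact permutation p = 0.0397) and -0.79 without the end stages. Tbx5 had 4.19, 4.91 and 4.14 at 72, 84 and 96 h and no region at any other stage. Sox7, the SoxF gene that lies on the same chromosome as Gata4, had 2.79, 4.19 and 3.86 at 48, 72 and 84 h, and 3.07 at 132 h. Hand1 had no H3K27ac at its starts in any of the 13 wt lists.

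A further 3 genes had acetylated starts late in the unnumbered lists. Lmo2 had H3K27ac in 13 of 13 wt lists, and its unnumbered values in stage order were 8.605, 10.9, 10.9, 12.7, 14.3, 8.83, 5.88, 6.38 and 8.23. Gata6 had no region at 48 h and 72 h and values of 9.83, 8.27, 7.58, 7.01, 7.41, 5.55 and 8.52 from 84 h to 168 h. Kdr had 4.16 to 6.32 at the 7 stages from 72 h to 144 h and 0 at 48 h and 168 h. In the numbered wt libraries Kdr had 3.21 and 0 at 96 h and 0 and 0 at 120 h, where Gata6 had 3.93 and 0. The 120 h regions of both genes were thus not found in every wt library. With lists of equal length the unnumbered 120 h list kept the region of Gata6 and not that of Kdr. At 168 h, Lmo2 and Gata6 were the 2 genes of the 10 with H3K27ac at a start.

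Lmo2 was marked at its internal starts. It has 4 protein-coding starts, the first at 0 bp and the others at 12134, 12228 and 12249 bp. The 3 internal starts had H3K27ac in 13 of 13 lists, H3K27me3 in 5 of 6, PolII in 7 of 8, RAD21 in 15 of 16, NIPBL in 6 of 8 and CTCF in both lists, whereas the first start had H3K27ac in 1 of 13 lists and no other factor or mark. PolII at Lmo2 was 12.8, 7.94, 24.98, 10.1, 15.4, 4.63, 6.395 and 0 at 72, 84, 96, 108, 120, 132, 144 and 168 h. It was the highest PolII value of the 10 genes at 84 h to 144 h. Lmo2 was also the sole member with pSer2 PolII at a start, at 72 h (4.35) and 96 h (3.34) of 5 lists.

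Etv2 had PolII near its start with little H3K27ac. Its PolII start signals were 13.3, 0, 8.03, 7.55, 0, 0, 5.05 and 3.56 at the 8 stages from 72 h to 168 h. The PolII values came from an exonic region whose median summit, at 1124 bp, lay outside the 1 kb window. This region was in 6 of 8 lists, and at 120 h it did not reach the window. The H3K27ac of Etv2 was 6.28 at 48 h, 5.95 at 108 h and 5.88 in 1 numbered 96 h library. Kdr had PolII at 144 h (6.06) and 168 h (4.203), and Gata6 at 144 h (5.05). The other 6 genes had no PolII at a start at any stage. Over all genes, 0 of 12777 (0%) had a called PolII trend and 805 had an unadjusted p under 0.05.

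H3K27me3 was strongest at 120 h. The number of genes with a region at the start was 5, 7, 9 and 7 at 72, 96, 120 and 144 h, and their summed signal was 157, 248.7, 446 and 216. The whole lists were also highest at 120 h, with a region at 14.7, 18.6, 21.7 and 16.2% of all genes. So were 15 further cardiac genes, whose summed signal was 168.8, 243.9, 452.7 and 281.9, and 25 further vascular and blood genes, with 108, 364, 471 and 309. In order at 120 h, Gata6 had 75.1, Gata4 74.6, Tal1 63.3, Sox18 62.3, Hand1 54.3, Sox7 and Kdr 47.2 each, Lmo2 14.6 and Etv2 7.55, and Tbx5 had 0. At 96 h, where the mark has 3 wt libraries, values of 1 gene spread by up to 35.5 (Hand1, from 0 to 35.5), so neighbours in this order cannot be ranked. The first 4 genes stood above 95.3 to 98.8% of the other genes with a region in that list.

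Of the vascular and blood genes, all but Etv2 carried the mark from the first stage measured, and Etv2 had it in 1 of 6 lists (7.55 at 120 h). Sox18 had 49.9 at 72 h, 53.4, 35.2 and 32.2 in the 3 libraries at 96 h, 62.3 at 120 h and 37.9 at 144 h. Tal1 had 37.3 at 72 h, 34.9, 40.1 and 34.5 at 96 h, 63.3 at 120 h and 41.6 at 144 h. Sox7 had 30.4, then 42.3, 28.7 and 27.1, then 47.2 and 32.3, and Kdr had 23.5, then 29.1, 25.5 and 23.1, then 47.2 and 30.4. These 4 genes were marked in all 6 wt lists. Lmo2 had 16.1 at 72 h, 0, 8.50 and 6.70 at 96 h, 14.6 at 120 h and 20.5 in the last list.

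The cardiac genes had no region at the start at 72 h. Gata6, Gata4 and Hand1 had regions at 96 h, Hand1 in 2 of the 3 libraries, and at 120 h, and Tbx5 had none in any of the 6 lists. Gata6 had 0 at 72 h, 43.9, 33.98 and 32.2 at 96 h, 75.1 at 120 h and 36.0 at 144 h. Gata4 had 0 at 72 h, 9.52, 31.6 and 29.1 at 96 h, 74.6 at 120 h and 17.4 at 144 h. Gata4 has 3 protein-coding starts, with an internal start at 31664 bp, and the 17.4 came from a region at 31890 bp. Within 2.5 kb of the starts Gata4 had 38.6 in the unnumbered 96 h list and 41.6 at 144 h. Its low values at these stages within 1 kb thus depended on the window. Hand1 had 0 at 72 h, 35.5, 0 and 20.4 at 96 h, 54.3 at 120 h and 0 in the last list. The edge of the window mattered for some of them. Within 2.5 kb of the starts Hand1 had 34.4 at 72 h, whereas Gata4, Gata6 and Tbx5 still had 0, and Tbx5 had 37.3 at 120 h and 29.8 at 144 h. Gata6 moreover had regions at -4406 and 3341 bp in 6 of 6 lists. The 72 h and 144 h lists were the shortest of the wt lists (7732 and 7680 regions, against 9015 to 11469), and differences between the stages of this mark were not tested.

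The 4 promoters of the 3 genes that matched the sequence table were compared for their CpG content, since CpG-rich promoters are the usual sites of H3K27me3. The 250 bases before each start are given 5′ to 3′ on the strand of the gene, from RefSeq (GRCm38.p6), with CpG dinucleotides in capitals.
Kdr, chr5:75978456-75978705, minus strand: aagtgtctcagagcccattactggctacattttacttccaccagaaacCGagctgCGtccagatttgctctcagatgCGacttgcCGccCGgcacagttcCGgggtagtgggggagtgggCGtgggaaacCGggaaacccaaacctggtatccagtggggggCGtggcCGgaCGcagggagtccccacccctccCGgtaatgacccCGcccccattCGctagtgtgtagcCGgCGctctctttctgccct
Tal1, second start, chr4:115057561-115057810, plus strand: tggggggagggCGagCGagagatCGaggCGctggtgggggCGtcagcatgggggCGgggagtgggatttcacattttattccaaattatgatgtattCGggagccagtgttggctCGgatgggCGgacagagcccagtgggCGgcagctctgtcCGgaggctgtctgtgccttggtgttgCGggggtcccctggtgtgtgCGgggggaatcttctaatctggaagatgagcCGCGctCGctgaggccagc
Tal1, first start, chr4:115056176-115056425, plus strand: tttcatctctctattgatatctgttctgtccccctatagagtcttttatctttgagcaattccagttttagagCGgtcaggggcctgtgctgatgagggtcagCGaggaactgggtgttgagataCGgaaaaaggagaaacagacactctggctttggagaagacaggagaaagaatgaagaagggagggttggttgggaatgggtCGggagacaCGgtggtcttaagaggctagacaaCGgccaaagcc
Etv2, chr7:30635853-30636102, minus strand: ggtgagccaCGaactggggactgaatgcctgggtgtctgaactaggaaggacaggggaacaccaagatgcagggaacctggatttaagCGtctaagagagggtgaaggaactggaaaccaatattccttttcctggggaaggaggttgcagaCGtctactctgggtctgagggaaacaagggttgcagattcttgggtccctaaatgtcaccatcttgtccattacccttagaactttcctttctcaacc

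Kdr and the second Tal1 promoter each had 16 CpG, a number that 25.4% of 32851 mouse promoters reached, and both had H3K27me3 in 6 of 6 wt lists. The first Tal1 promoter had 6 CpG, the median of all promoters, and H3K27me3 in 4 of 6 lists. The Etv2 promoter had 3 CpG, reached by 71.0% of promoters, and a region at its start in 1 of 6 lists, at 120 h. H3K27ac overlapped both Tal1 starts in 5 of 13 lists. These starts lie 1385 bp apart and their windows overlap, so 1 region can count at both. With 4 promoters no test of a relation is possible.

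Both marks overlapped the starts of 5, 4, 3 and 3 genes at 72, 96, 120 and 144 h in the unnumbered lists. Over all genes the shares ranged from 7.93 to 14.2%. At 72 h these genes were Sox7, Sox18, Tal1, Kdr and Lmo2, and at 96 h Gata6, Sox18, Tal1 and Kdr. At 120 h and at 144 h they were Gata6, Kdr and Lmo2, while 6 genes at 120 h (Gata4, Sox7, Sox18, Tal1, Etv2 and Hand1) and 4 at 144 h (Gata4, Sox7, Sox18 and Tal1) had H3K27me3 without H3K27ac. The 2 marks in a pool of stembryos may lie on different cells, which cannot be told apart here.

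The 96 h and 120 h stages had 7 H3K27ac libraries each (3 wt, 2 Del(CBS1) and 2 Del(CBS1-2)) and allowed a test. Lmo2 fell at 120 h. Its start signal was lowest 4.71, median 6.24 and highest 8.83 at 120 h, against 10.4, 12.7 and 16.5 at 96 h, so that the stages did not overlap. The means were 6.51 ± 1.25 at 120 h and 12.9 ± 2.42 at 96 h (SD, n = 7 each), a log2 difference of -0.89 (SE 0.16, limma adjusted p = 0.000781). Tal1 also fell, with a region in 0 of 7 libraries at 120 h and in 5 of 7 at 96 h, where it averaged 3.36 ± 2.59 (limma adjusted p = 0.0145).

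**Figure D2:**
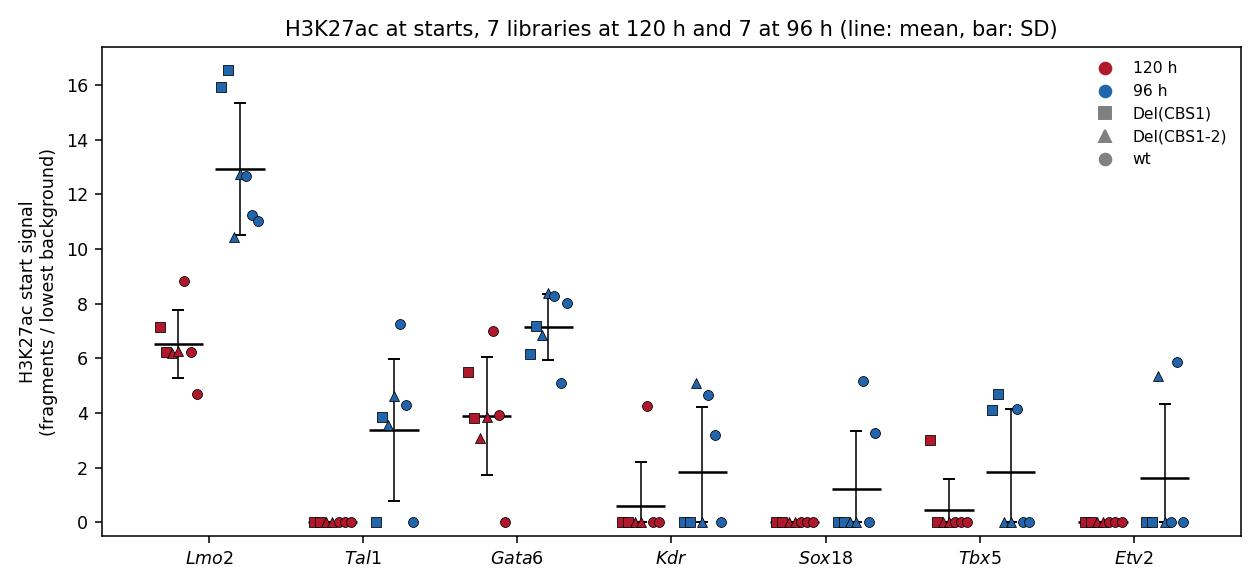
H3K27ac start signal (fragments divided by the lowest background) of the 7 tested genes in the 7 libraries at 120 h (red) and the 7 at 96 h (blue). Squares are Del(CBS1), triangles Del(CBS1-2) and circles wt, and lines and bars give the mean and SD. The 120 h libraries of Lmo2 lie between 4.71 and 8.83, all below its 96 h libraries, and Tal1 is at 0 in all 7 libraries at 120 h.

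Lower H3K27ac at 120 h was a feature of the whole table. Of 13238 genes tested, 356 (2.69%) were called higher and 4235 (32.0%) lower at 120 h, and the median log2 difference was -0.28. Of the 7 tested regulators, 0 were called higher and 2 lower, so their falls were no more frequent than over all genes. Their median log2 difference was -0.78. Gata6 averaged 3.88 ± 2.16 at 120 h and 7.14 ± 1.22 at 96 h (log2 difference -0.93, SE 0.36, limma adjusted p = 0.0576). Sox18 and Etv2 had a region in 0 of 7 libraries at 120 h and 2 of 7 at 96 h (limma adjusted p = 0.288 and 0.274), and Kdr and Tbx5 in 1 of 7 at 120 h and 3 of 7 at 96 h (0.341 and 0.234). Gata4 (0 and 1 libraries), Sox7 and Hand1 (none) were not tested, since the filter asked for a region in at least 2 libraries. P-values measure only the spread between these libraries, which may be technical.

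The calls depended on the libraries used. With the 3 wt libraries per stage alone, 36 genes were called, and the limma adjusted p was 0.288 for Lmo2 and 0.363 for Tal1. The differences themselves were about as large, with log2 differences of -0.77 for Lmo2 and -1.81 for Tal1, and Lmo2 had 6.22, 4.71 and 8.83 at 120 h, against 11.2, 11.008 and 12.7 at 96 h, without overlap. With the percent of the start window covered in place of summit height, it was 0.0997 for Lmo2 and 0.165 for Tal1. Over all alternatives the adjusted p ranged from 0.000217 to 0.288 for Lmo2, from 0.00308 to 0.363 for Tal1 and from 0.00679 to 0.39 for Gata6. Within 2.5 kb of the start, Etv2 was lower at 120 h (log2 difference -2.53, limma adjusted p = 0.000691).

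Among further vascular and blood genes some rose and others fell, whereas the called cardiac genes only fell. Of 15 further cardiac genes, 12 were tested, 3 fell and none rose (median log2 difference -0.43), where 32.0% of all genes fell, so the falls were no more frequent than over all genes. Foxh1, a partner of SMADs in Nodal signalling, averaged 0.901 ± 2.38 at 120 h and 28.4 ± 5.83 at 96 h (log2 difference -4.44, limma adjusted p = 3.25e-07), Isl1, a factor of second heart field progenitors, fell by 1.98 on the log2 scale (limma adjusted p = 0.00518) and the T-box gene Tbx3 by 0.58 (limma adjusted p = 0.0187). Of 25 further vascular and blood genes, 12 were tested, 2 rose and 2 fell (median -0.20), where 2.69% of all genes rose and 32.0% fell. Nrp1, a coreceptor of VEGF and semaphorins, averaged 9.24 ± 2.57 at 120 h and 1.24 ± 2.15 at 96 h (log2 difference 2.62, limma adjusted p = 0.000427), and the ETS gene Fli1 rose by 0.60 (limma adjusted p = 0.048). Eng, a coreceptor of TGF-beta, fell by 2.11 (limma adjusted p = 0.00133) and Egfl7, a protein secreted by endothelium, by 0.74 (limma adjusted p = 0.0146).

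RAD21 recurred at the starts of 3 genes. The 3 to 5 genes per list compare with 12.1 to 49.4% of all genes. RAD21 overlapped the starts of Gata6, Etv2 and Lmo2 in 15 of 16 wt lists each, Kdr in 5, Tal1 in 4, Gata4 in 2 and Sox7 in 1, and no region overlapped Hand1, Tbx5 or Sox18. Gata6 ranged from 0 in 1 library at 84 h to 23.0 in 1 library at 108 h, Etv2 from 0 to 12.2 and Lmo2 from 0 at 48 h to 13.2 at 96 h. Of these starts, 3 also had CTCF. In the 168 h and 72 h lists CTCF was 58.1 and 32.9 at Etv2, 28.002 and 13.8 at Gata6 and 8.88 and 16.7 at Lmo2, and Sox18 had 7.51 and 0.

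**Figure D3:**
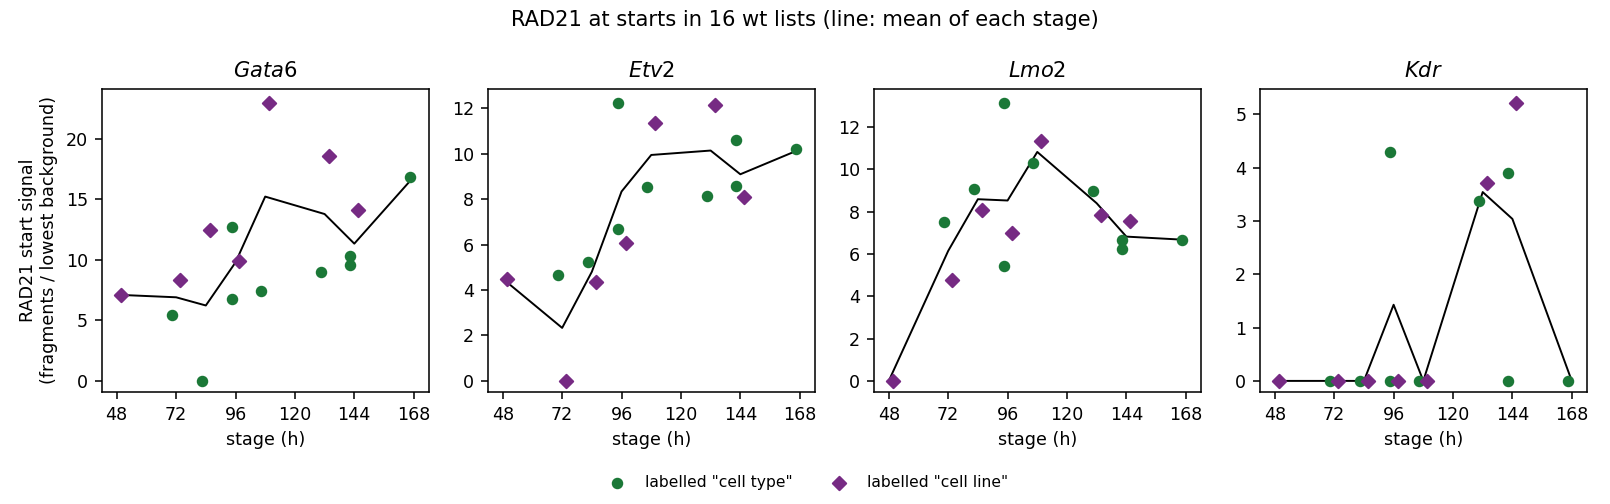
RAD21 start signal (fragments divided by the lowest background) of Gata6, Etv2, Lmo2 and Kdr against the stage in hours in 16 wt lists. Circles are libraries whose cells were described under the tag cell type, diamonds those under cell line, and the line joins the means of the stages. Gata6 reaches 23.0 at 108 h and Etv2 stays above 6 from 96 h on.

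Etv2 had its higher RAD21 values late. Over the 8 stage means rho with hours was 0.90 (exact permutation p = 0.00456, adjusted p = 0.0849), with r = 0.82 (exact permutation p = 0.015) and r = 0.82 without the 48 h and 168 h stages. For Gata6 rho was 0.81 (exact permutation p = 0.0218, adjusted p = 0.149), r = 0.83 (exact permutation p = 0.0142) and r = 0.70 without the end stages. Within the libraries tagged cell type rho was 0.86 for both genes (adjusted p = 0.568), and within those tagged cell line 0.79 for Etv2 and 0.82 for Gata6 (adjusted p = 0.117 for both, exact permutation tests). Of 13330 genes tested, 0 (0%) passed and 3010 had an unadjusted p under 0.05, and 1926 passed without the 168 h library, none of them a regulator. Without regions that overlap CTCF, Gata6 had rho = 0.25 (exact permutation, adjusted p = 0.896), and Etv2 had no region left.

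Between the early and late stages with 2 libraries each, RAD21 at none of the genes passed the test. Etv2 had 8.53, 11.4, 8.14 and 12.1 at 108 h and 132 h, against 4.66, 0, 5.24 and 4.36 at 72 h and 84 h. The groups did not overlap, and the log2 difference was 1.55 (SE 0.62, limma adjusted p = 0.112). Gata6 had 7.46, 23.0, 8.98 and 18.6 at 108 h and 132 h, against 5.44, 8.37, 0 and 12.5 at 72 h and 84 h (log2 difference 1.40, SE 0.78, limma adjusted p = 0.226), and its groups overlapped over all 8 libraries. They did not within either replicate number. In the first replicates, all tagged cell type, Gata6 had 7.46 and 8.98 late, against 5.44 and 0 early, and in the second, all tagged cell line, 23.0 and 18.6 late, against 8.37 and 12.5 early. With the number as a block the limma adjusted p was 0.128 for Gata6 and 0.114 for Etv2. Lmo2 averaged 9.62 ± 1.54 at the later and 7.37 ± 1.84 at the earlier stages (SD, n = 4 each, limma adjusted p = 0.449).

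Over 11143 genes, 531 (4.77%) were called higher and 1 (0.00897%) lower at 108 h and 132 h, and 3637 had an unadjusted p under 0.05. The median log2 difference was 1.26 over all genes and 0.73 over the 6 of 10 regulators that could be tested. Kdr had RAD21 in 2 of 4 late and 0 of 4 early libraries (limma adjusted p = 0.227), Gata4 in 0 of 4 late and 2 of 4 early (0.226), and Tal1 in 1 of 4 late and 2 of 4 early (0.46). The total of 532 calls rested on single libraries. It was 8 without the second 72 h library, 1490 and 960 without the first and second 84 h library and 1335 without the second 108 h library, and 2 with lists of equal length.

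NIPBL reached the starts of Etv2 and Lmo2 in most stages. Etv2 had 0, 6.46, 7.02, 6.79, 0, 7.345, 4.87 and 5.555 at the 8 stages from 72 h to 168 h, and Lmo2 had 0, 0, 7.30, 5.04, 6.66, 7.75, 5.88 and 4.12. At 72 h the Etv2 region (8.00, median summit over the lists at 1086 bp) did not reach the start window. Tal1 had NIPBL at 132 h (6.53), 144 h (5.47) and 168 h (4.12), after its H3K27ac regions had gone (rho = 0.76, exact permutation p = 0.0476, adjusted p = 0.278), with r = 0.75 (exact permutation p = 0.0446) and r = 0.81 without the 72 h and 168 h stages. Gata6 had it at 144 h (6.08) and 168 h (5.73), Kdr at 96 h (5.05) and 168 h (4.12), and Sox18 at 72 h (5.33) and 144 h (3.24). NIPBL lists held 4888 to 40490 regions, and 0 of 13091 genes (0%) had a called trend, with 2286 at an unadjusted p under 0.05 and 1870 called without the 96 h library, none of them a regulator.

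Strong CTCF and RAD21 regions lay beside or within several of the genes, away from their own starts. RAD21 was present in 16 of 16 wt lists, and CTCF in both, at -7331 bp of Sox18 (highest RAD21 signal 110), 24434 bp of Lmo2 (85.6), 12639 bp of Hand1 (62.6), 37951 and 49307 bp of Gata4 (56.8 and 36.8) and -8516 bp of Tal1 (16.1). The site near Sox18 lies beside the start of its neighbour Tcea2. The Lmo2 and Hand1 sites and the CTCF site at the start of Etv2 were picked because they contain the core of the CTCF motif. The core, on either strand, is CCA, 2 bases of any kind, AG, 2 bases of any kind and GGC. They are printed as 61 bases around the 168 h summit, plus strand of GRCm38, with the motif in capitals. At the sites listed near Sox18, Gata4 and Tal1 no match was found around the 72 h or 168 h summit. The motif was present in 25.9% of all 168 h CTCF summits.
Etv2, coding exon at the start, chr7:30634788-30634848: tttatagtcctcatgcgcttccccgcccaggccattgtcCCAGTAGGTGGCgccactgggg
Lmo2, downstream, chr2:103982388-103982448: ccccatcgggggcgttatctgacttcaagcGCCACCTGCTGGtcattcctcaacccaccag
Hand1, downstream, chr11:57820132-57820192: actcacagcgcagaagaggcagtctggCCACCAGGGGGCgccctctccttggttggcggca

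In Etv2 the motif lies inside the coding sequence, and the same position had RAD21 in 15 of 16, NIPBL in 7 of 8 and PolII in 6 of 8 wt lists. The motif ran on the plus strand at Etv2 and Hand1 and on the minus strand at Lmo2.

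CDX2 bound away from the start near Hand1. Hand1 had a CDX2 region at -4314 bp (fold enrichment 4.59 at 96 h and 3.86 at 120 h) and another at 5090 bp (5.67 at 96 h), among 4501 regions in the 96 h list and 2272 in the 120 h list, and none in the 72 h list. They are printed as 101 bases around the 96 h summit, plus strand of GRCm38, because each holds the CDX2 motif CNATAAA, in capitals as it reads on this strand (searched on both strands).
Hand1, upstream, chr11:57837086-57837186: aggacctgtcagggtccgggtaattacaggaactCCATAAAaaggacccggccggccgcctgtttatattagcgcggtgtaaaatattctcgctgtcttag
Hand1, downstream, chr11:57827678-57827778: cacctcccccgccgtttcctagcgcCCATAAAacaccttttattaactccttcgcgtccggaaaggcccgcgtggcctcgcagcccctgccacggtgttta

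Each Hand1 region held 1 match, and the motif was present at 29.9% of all CDX2 summits at 96 h and 35.7% at 120 h. Both Hand1 regions overlapped NIPBL and RAD21 regions of the series, RAD21 in 1 of 16 wt lists each, at 96 h. Neither overlapped CTCF, and the downstream one also overlapped an H3K27me3 region. For all CDX2 regions the shares at 96 h were 89.7% for NIPBL, 78.0% for RAD21, 10.6% for CTCF and 3.33% for H3K27me3.

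At Hand1 the upstream site had NIPBL in 5 of 8 lists, from 108 h on, and the downstream site had NIPBL in 4 of 8, PolII in 3 of 8 (72 h to 96 h) and H3K27ac in 7 of 13 lists, highest at 84 h (12.6).

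**Figure D4:**
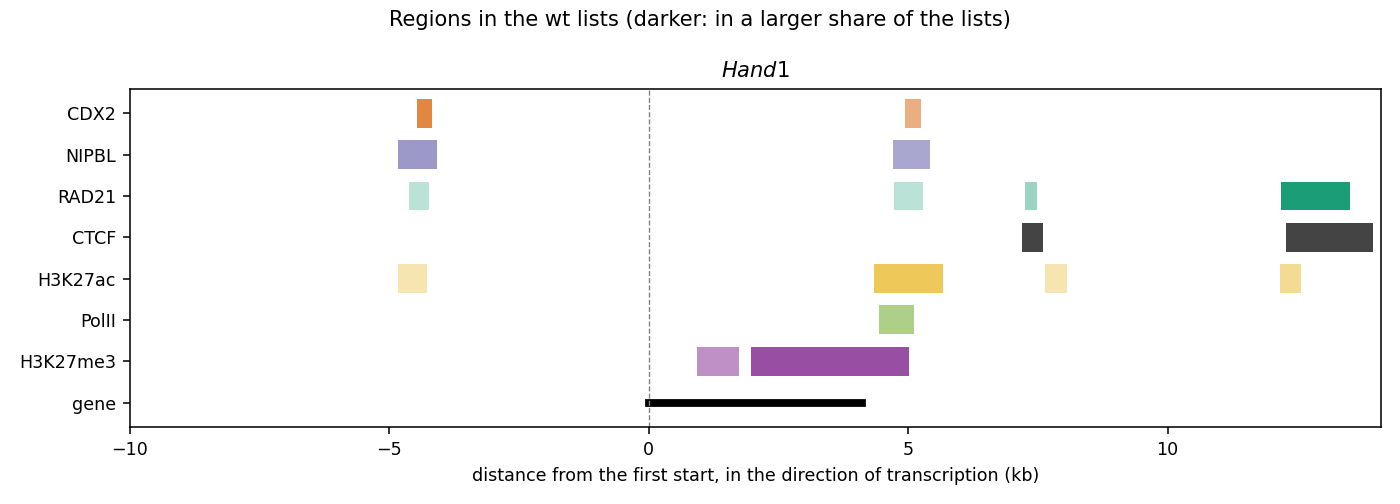
Regions of 7 assays around Hand1 against the distance from the first start in kb, in the direction of transcription. Bars are regions merged over the wt lists, darker where a larger share of the lists holds them, and the black bar is the gene. CDX2 lies at -4314 and 5090 bp, each with a NIPBL region.

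Distal H3K27ac regions differed between the genes. Etv2 had one at -3440 bp in 13 of 13 wt lists (highest signal 18.6 at 84 h), which also had pSer2 PolII nearby at -3629 bp in 5 of 5 lists. Tal1 had a region downstream of the gene at 23157 bp in 11 of 13 lists (highest 10.2 at 48 h), so its neighbourhood stayed acetylated in lists in which its starts had no region. Sox18 had a region at -4402 bp in 6 lists, Gata4 at -24437 bp in 4, and Kdr at 7966 and 36132 bp in 3 lists each, from 120 h on. No target gene of these regions was measured.

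In the mutants, most H3K27ac and RAD21 values of the regulators overlapped those of wt. Regulators at 0 in every library compared cannot stand apart. With 2 libraries a group no exact test can reach p = 0.05, so groups are described as overlapping or not. At 96 h, Lmo2 had H3K27ac of 15.9 and 16.5 in Del(CBS1), against 11.2 and 11.008 in the numbered wt libraries, and Tbx5 had 4.11 and 4.69 in Del(CBS1), against 0 and 0 in the numbered wt libraries. The unnumbered wt library had 12.7 for Lmo2, below both Del(CBS1) values, and 4.14 for Tbx5, between them, so Tbx5 overlapped once it was counted. At 120 h, Lmo2 had 7.13 and 6.24 in Del(CBS1), against 6.22 and 4.71 in wt, and the unnumbered wt library had 8.83. Of all genes with a region in at least 1 of the numbered libraries compared, 49.0% did not overlap at 96 h (994 lower and 5169 higher in Del(CBS1)) and 50.6% at 120 h. Higher values in Del(CBS1) were thus common. Of the regulators with a region in these libraries, 2 of 7 did not overlap at 96 h and 1 of 3 at 120 h. Del(CBS1-2) was set against the same wt libraries. Of the regulators with a region, 0 of 7 stood apart at 96 h (72.0% of all genes with a region) and 0 of 2 at 120 h (63.1%). The Del(CBS1-2) libraries were tagged cell line and these wt libraries cell type, and the part of the tag was not tested.

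RAD21 at Gata6 was 14.0 and 16.9 in Del(CBS1), against 6.74, 12.7 and 9.89 in the 3 wt libraries at 96 h. Of the 6 regulators with a RAD21 region in these libraries, Gata6 alone stood apart, against 9.70% of all genes with a region. The mutant libraries were tagged cell line and the wt ones were of both tags, and the part of the tag was not tested.

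H3K27me3 at 96 h was compared between the libraries labelled Del(CBS1-5) and the 2 numbered wt libraries. Within 1 kb, 8 regulators had a region in these libraries, of which 4 were lower and 2 higher without overlap. Of all genes with a region, 38.0% did not overlap (1330 lower and 578 higher). Sox18 had 35.7 and 36.4 in Del(CBS1-5), against 35.2 and 32.2 in wt, and Sox7 had 34.3 and 31.1 in Del(CBS1-5), against 28.7 and 27.1 in wt. Both differences were smaller than the spread over all 3 wt libraries, of which the unnumbered one had 53.4 for Sox18 and 42.3 for Sox7. Tal1 had 0 and 32.7 in Del(CBS1-5), against 40.1 and 34.5 in wt, and Kdr had 14.0 and 23.0 in Del(CBS1-5), against 25.5 and 23.1 in wt.

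The lower values at Gata4, and the size of the difference at Gata6, depended on the width of the window. Both had 0 in both Del(CBS1-5) libraries, against 31.6 and 29.1 for Gata4 and 33.98 and 32.2 for Gata6 in wt. In Del(CBS1-5), Gata6 had summits at 1096 and 1218 bp, just outside the window. Within 2.5 kb, a width chosen after seeing the data, Gata6 had 27.3 and 28.7 in Del(CBS1-5), against 33.98 and 32.2 in wt, and Gata4 had 0 and 31.9 in Del(CBS1-5), against 31.6 and 32.8 in wt. Gata6 thus remained lower at this width and Gata4 overlapped. At this width 4 genes were again lower and 2 higher (37.9% of all genes), but not the same ones. Kdr and Sox7 then overlapped, Etv2 (0 and 0 in Del(CBS1-5), against 6.07 and 7.70 in wt) and Tbx5 (0 and 0, against 12.1 and 13.4) were lower, and Hand1 (27.3 and 24.3 in Del(CBS1-5), against 23.5 and 22.8 in wt) was higher, while Tal1 stayed lower and Sox18 higher. The first Del(CBS1-5) library was shallow, with 7212 regions and a lowest background of 1.43, against 10844 and 2.47 in the second and 10192 to 11469 regions in wt. The deletion and the background of its separately derived line cannot be told apart.

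**Figure D5:**
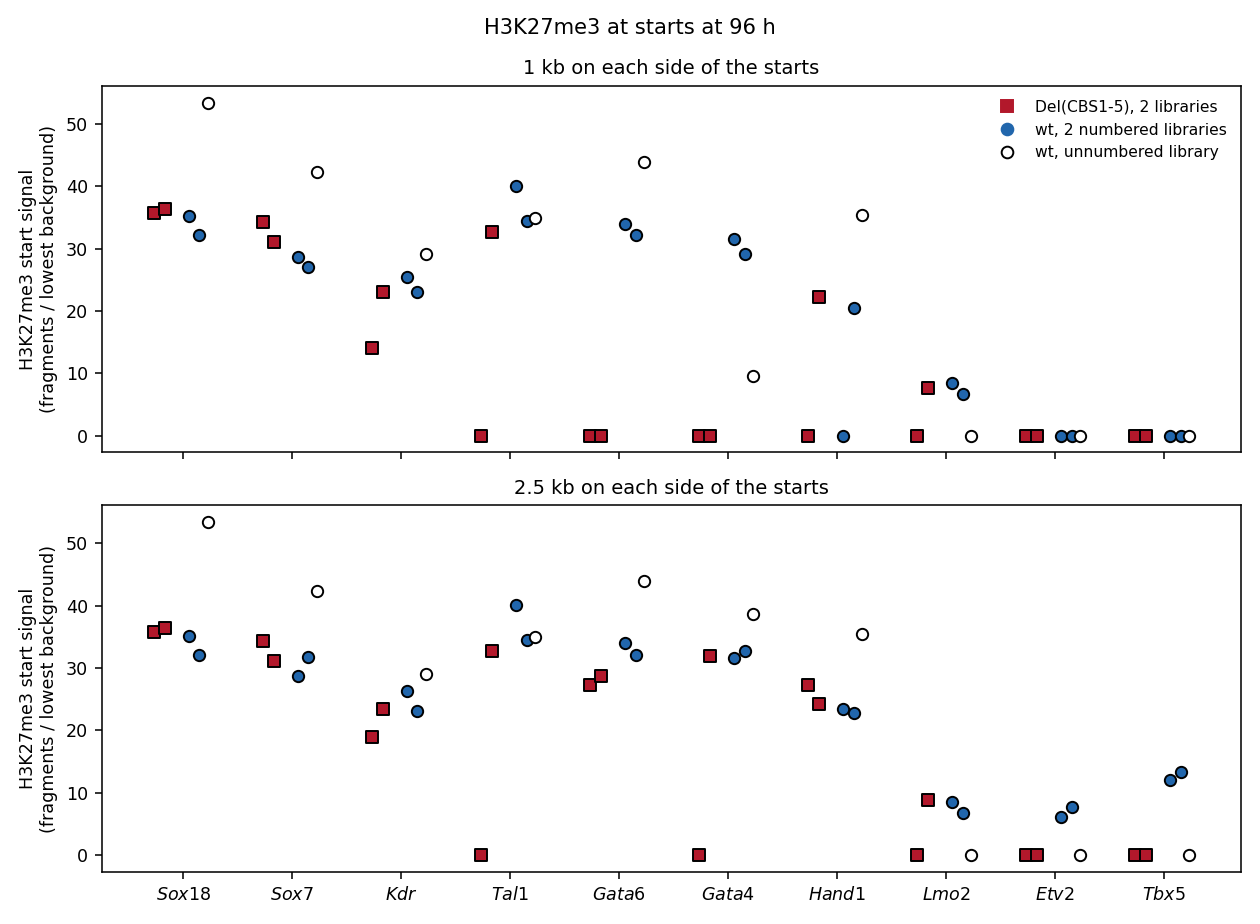
H3K27me3 start signal (fragments divided by the lowest background) of the 10 genes at 96 h, counted within 1 kb (top) and 2.5 kb (bottom) of the starts. Red squares are the 2 Del(CBS1-5) libraries, blue circles the 2 numbered wt libraries and open circles the unnumbered wt library. Gata6 is at 0 in Del(CBS1-5) within 1 kb, and at 27.3 and 28.7 within 2.5 kb.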

How the data were processed

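Stembryos were profiled by ChIP-seq (H3K27ac, H3K27me3, CDX2, pSer2 PolII) or ChIPmentation (CTCF, RAD21, NIPBL, PolII). Per the submitters' processing notes and the methods, reads were trimmed with cutadapt 1.16, aligned with Bowtie2 2.3.4.1 to mm10 and filtered in SAMtools 1.8, and peaks were called per library with MACS2 2.1.1.20160309 without input. The 3 pSer2 PolII samples of 144 h were merged into 1 list by the authors. The deposited lists give, for each peak, a score, the fold enrichment (the ratio of fragments to background), −log10 p-value and the −log10 q-value, as the authors' caller wrote them.

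Pileup and background were solved from the deposited fold and −log10 p within 0.001, which succeeded for at least 99.97% of peaks per list. Read depth is not in the lists, and the lowest background stands for it. Starts came from GENCODE vM21 (basic transcripts, 21 chromosomes). Stage trends used exact permutations of Spearman's rho and Pearson's r, and group tests used limma 3.58.1 in R 4.3.3 with a mean trend on log2(start signal + 1), so that fold changes of low values are understated, and with genotype as a term for H3K27ac. Both were run over all genes with a region and adjusted by Benjamini-Hochberg, with Python 3.11.15 (numpy 2.4.6, pandas 2.3.3, scipy 1.17.1, numba 0.67.0, matplotlib 3.10.9). The scripts were tested on simulated data.

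All 10 genes were named in every assay, and of 2 lists of 15 cardiac and 25 vascular and blood genes the called ones, at most 6 a list. The genes and lists were chosen with earlier results of these data known. Alternatives changed the window, region threshold, list length, measure, pseudocount, samples and replicate block. One locus is not reported here.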

Additional observations from a re-analysis of the deposited data

Results flagged for a closer look

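Among 22 groups of 4 to 7 libraries of the 10 genes, 5 held a value that stood apart from its group by more than Dixon's limit (0.829 for 4 and 0.568 for 7 libraries). The groups hold many values of 0, so the usual chance rate of this limit does not apply and the count is only descriptive. In 4 of these 5 groups 1 library had a region at the start and the others none, which passes the limit at any height. How near these 4 regions lay to the calling threshold was not tested. In H3K27ac, these were Kdr with 4.26 in the unnumbered wt library at 120 h, Tbx5 with 3.02 in the first Del(CBS1) library at 120 h and Gata4 with 4.34 in the second Del(CBS1-2) library at 96 h. In RAD21, Tal1 had 3.32 in the second wt library at 108 h, against 0 in the other 3 libraries of 108 h and 132 h. In the remaining one, RAD21 at Etv2 was 0.0 in the second wt library at 72 h, against a nearest value of 4.36 in the other libraries of 72 h and 84 h. That library had the shortest RAD21 list, with 31823 regions, and the part of its depth in the value was not tested.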

How the results depend on the processing

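The 199 starts with a region became 120 with a −log10 q of at least 5 and 124 with lists of equal length. Trend calls stood at 0 except for H3K27ac with a region in at least 3 stages (14), NIPBL by percent covered (921), and single stages left out: 0 to 16 for H3K27ac (16 without 168 h), 0 to 1870 for NIPBL (1870 without 96 h) and 0 to 1926 for RAD21 (1926 without 168 h). None of these trend alternatives called a regulator. The 4591 H3K27ac calls between 120 h and 96 h became 983 by percent covered, 36 with wt libraries alone and 3050 without a genotype term, and 3197 to 5245 with single libraries left out. Gata6 was called with a −log10 q of at least 5 (limma adjusted p = 0.047), equal lists (0.00679) and without the unnumbered wt 120 h library (0.0181). The 532 RAD21 calls became 282 with a −log10 q of at least 5, 2 with equal lists, 1016 by percent covered and 8 to 1490 with single libraries left out. The 10 mutant values without overlap became 17 by percent covered and 11 within 2.5 kb, which was chosen after seeing the data. Of 240 alternative values of single regulators in the limma tests, 231 kept their side of the threshold, 4 lost and 5 gained the call, and none that was called changed direction. The cause of these changes was not tested.

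The replicate numbers were not taken to pair the libraries, since not every correlation passed 0.1. With a replicate block, 6150 genes were called for H3K27ac, where Gata6 passed (limma adjusted p = 0.0387), and 551 for RAD21. Correlations of same-numbered deviations ran from -0.033 to 0.046 over 15 H3K27ac pairs and from -0.164 to 0.527 over 6 RAD21 pairs, of which the 3 with the 72 h libraries were negative and the others 0.293 to 0.527. In this RAD21 comparison the number and the tag (cell type or cell line) coincide.

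Limits: most stages had 1 library and peak lists hold no values under the calling threshold.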
